A study of Mus musculus with 2 samples.

Results

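Trappc9 and 7 genes that lie around it on mouse chromosome 15 were followed in RNA sequencing of mouse adipose material. The tissue label reads adipose, whereas the sample titles name adipose-derived stem cells. The 8 genes were taken from the deposited gene table by name (Trappc9, Peg13, Kcnk9, Chrac1, Ago2, Ptk2, Dennd3 and Slc45a4), each stood on 1 line, and the table held 54532 genes in all. The libraries carried the genotype labels WT (wild type) and Trappc9 knock out (KO), with 1 library for each, from mice aged 3 to 4 weeks. The series' design text describes abdominal fat pads of 3 WT and 3 KO mice, digested with collagenase, strained and pelleted before lysis in TRIzol, whereas the extraction label describes pads frozen on dry ice. Which preparation was sequenced, whether the mice of a genotype were pooled, the strain, the sex and the knockout allele are not given in the sources used here. With 1 library for each genotype, differences below lack a replicate check and come without p-values.

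Trappc9 encodes a subunit of TRAPPII, a complex that tethers transport vesicles and activates Rab GTPases, and loss of TRAPPC9 in humans causes intellectual disability with microcephaly and, in many patients, obesity. The gene lies in an imprinted domain, a stretch in which the copies inherited from mother and father are used unequally. Peg13, a noncoding RNA read from inside the Trappc9 gene, is made from the paternal copy, and its promoter carries the methylation mark that distinguishes the copies. In mouse brain Kcnk9 is transcribed from the maternal copy, and Trappc9, Chrac1 and Ago2 favour the maternal copy there. The deposited values are totals over both copies, so they say nothing about which parental copy was read.

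Levels are given as FPKM, fragments per kilobase of gene length scaled for library size, as deposited, with the WT-labelled library first. The fragments behind each value were recovered from FPKM and gene length, 13705193 in the WT-labelled library and 14783728 in the KO-labelled library. The KO-labelled total was 1.08 times the WT-labelled total. The library sizes implied by the deposited values differed by only 1.01-fold, so the deposited scaling was not by these totals. A ratio is KO FPKM over WT FPKM, with an exact 95% Clopper-Pearson interval from the fragments. The interval covers counting error only, and PCR reads without molecular identifiers are not independent molecules. A gene is called higher or lower beyond counting error where this interval lies wholly above or below 1. Genes that averaged at least 1 FPKM over both libraries are called measured. Of the 13084 measured protein-coding genes, against which counts below are set, 24.6% were higher and 17.6% lower. With TPM, a rescaling that gives both libraries the same sum, these shares were 7.88% and 48.4%, and with scaling by library totals 14.5% and 30.3%.

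Cell type markers were read as a check on the labelled material. The 6 adipocyte markers were low, from 0.0631 to 5.82 FPKM in the WT-labelled library and from 0.0834 to 4.17 FPKM in the KO-labelled library, with Adipoq, the adipocyte hormone adiponectin, at 2.30 and 0.51 FPKM, and 3 of the 6 were lower in the KO-labelled library (Adipoq, Plin1 and Retn). The 6 markers of adipose stromal cells ran from 18.2 to 531 and from 12.2 to 377 FPKM, with Col1a1 the highest, and 2 were higher (Dpp4 and Ly6a) and 4 lower (Cd34, Pdgfra, Pi16 and Col1a1) in the KO-labelled library beyond counting error. All 8 markers of the epididymal epithelium, the lining of the duct in which sperm mature, were at 39.7 FPKM or above in both libraries, and they summed to 16800 and 23477 FPKM, with 7 of the 8 higher in the KO-labelled library. All 3 endothelial markers were higher there, from 5.43 to 11.9 and from 6.10 to 13.6 FPKM, and of 4 leukocyte markers, at most 6.41 and 5.40 FPKM, 0 were higher and 0 lower. Of 9 neuronal markers, 1 averaged 1 FPKM or more (Rbfox3, at 3.63 and 4.29 FPKM), and Snap25, a neuronal synaptic gene, was at 0 in both. In this list 3 were higher (Rbfox3, Syt1 and Slc17a7) and 1 was lower (Map2) in the KO-labelled library beyond counting error. These marker calls are given with the deposited scaling only, and calls of other genes below depended on the scaling. The part of the epididymal, stromal and endothelial signal in the values below was not tested, and in such bulk samples fewer cells of a type and less RNA per cell cannot be told apart.

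The 8 genes spanned 1.14 Mb of chromosome 15 (mm10), from 72501089 to 73645762. From the lowest coordinate upward, Kcnk9 (72501089 to 72546340, minus strand) came first and was followed after 43.3 kb by Trappc9 (72589620 to 73061204, minus strand, 471.6 kb). Peg13 (72805600 to 72810324, minus strand) lay inside Trappc9. In the GENCODE annotation it sat in intron 16 of the 2 Trappc9 transcripts that have 22 exons, an intron of 146198 bases, and shared 0 exonic bases with Trappc9. As both genes are read from the same strand, unspliced Trappc9 RNA that crosses this intron would be counted on Peg13, and its part in the Peg13 value was not tested.

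On the far side of the Trappc9 start, 29.2 kb away, came Chrac1 (73090392 to 73097554, plus strand). Its end overlapped the end of Ago2 (73095844 to 73184935, minus strand) by 1711 bases, of which 219 were exonic in both genes, 9.31% of the Chrac1 exons and 1.56% of the Ago2 exons. How fragments in that overlap were assigned, and whether strand was used, are not given in the sources used here. Ptk2 (73205102 to 73423280, minus strand), Dennd3 (73512560 to 73572242, plus strand) and Slc45a4 (73577424 to 73645762, minus strand) followed, with only 5.18 kb between the last pair. For all 8 genes the deposited length equalled the summed length of the annotated exons, for example 7937 bases for Trappc9.

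Trappc9, the targeted gene, was at 9.94 FPKM in the WT-labelled library and 12.6 FPKM in the KO-labelled library. These values came from 1117 and 1432 fragments, and their counting intervals, 9.36 to 10.5 and 12.0 to 13.3 FPKM, did not overlap. The ratio was 1.27 (1.17 to 1.37), so the KO-labelled library held more Trappc9 fragments per gene length, not fewer. Of the 13084 measured protein-coding genes, 9.58% had a log2 ratio at least as high. The table has 1 value for all 7 annotated transcripts of Trappc9, of which 5 are protein-coding, and a deletion or frameshift that leaves most exons in the RNA cannot be read from it. The gene value therefore does not check the genotype label, and directions below are between libraries as labelled.

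Peg13 stood at 7.46 FPKM (499 fragments) and 8.60 FPKM (581 fragments). It was higher in the KO-labelled library beyond counting error, with a ratio of 1.15 (1.02 to 1.30). The host gene and the RNA inside it thus differed in the same direction. In each library Peg13 was at a lower level than Trappc9, with a Trappc9 over Peg13 level ratio of 1.33 (1.20 to 1.48) in the WT-labelled library and of 1.47 in the KO-labelled library.

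Kcnk9, which encodes a tandem-pore potassium channel (TASK-3) that helps set the resting potential of neurons, was close to absent. It had 0 fragments in the WT-labelled library, a count that allows up to 3 fragments or 0.0172 FPKM, and 1 fragment in the KO-labelled library, or 0.0057 FPKM. No difference in Kcnk9 was detectable at this depth, and it enters no count below. It is also the only gene of the 8 on the far side of the Trappc9 end.

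Chrac1 encodes a small histone-fold protein of the CHRAC chromatin remodelling complex. It was at 11.3 and 12.5 FPKM (377 and 421 fragments), and its ratio of 1.11 (0.96 to 1.27) did not differ from 1 beyond counting error. Ago2, the Argonaute protein that cuts RNAs paired to a small guide RNA, was at 7.27 and 7.33 FPKM. It had the most fragments of the set, 1445 and 1471, and its ratio of 1.01 was also the closest to 1 (0.94 to 1.08). A difference of the size seen for Trappc9 lies outside that interval.

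Ptk2, focal adhesion kinase, relays signals from integrins to the cytoskeleton. It stood at 5.13 FPKM (857 fragments) and 5.84 FPKM (986 fragments), higher in the KO-labelled library with a ratio of 1.14 (1.04 to 1.25). Dennd3, an activator of the GTPase Rab12, had the lowest measured level of the set. At 4.13 and 4.27 FPKM (334 and 349 fragments) its ratio was 1.03 (0.89 to 1.21). Slc45a4, of a family of proton-coupled sugar transporters, was the only measured gene of the set with a ratio under 1. It stood at 6.32 and 6.07 FPKM (758 and 735 fragments), a ratio of 0.96 (0.87 to 1.06) that did not differ from 1 beyond counting error.

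**Figure D1:**
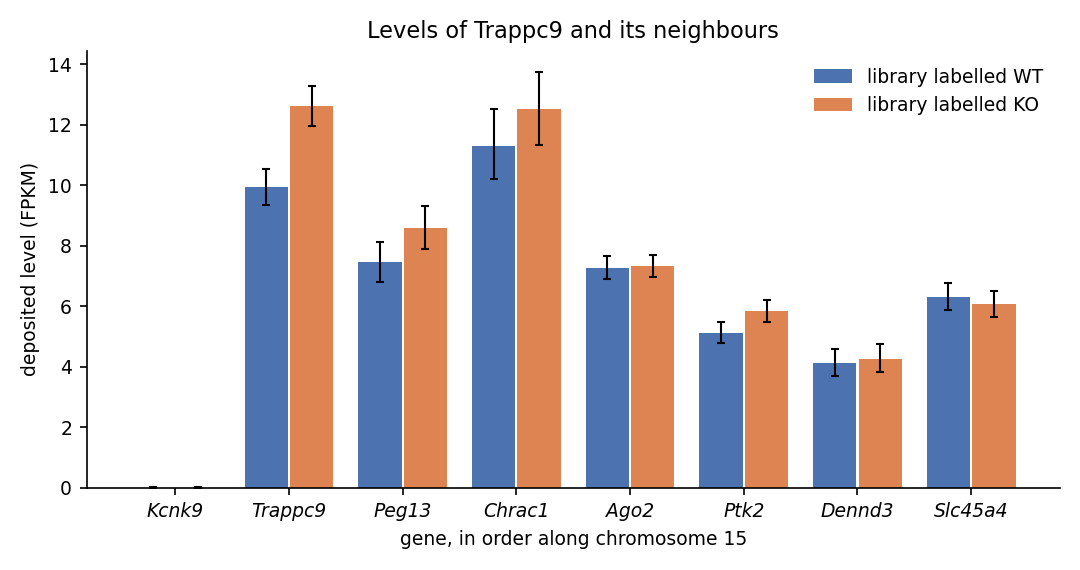
Level of each of the 8 genes in FPKM in the WT-labelled library and the KO-labelled library, 1 bar for each library, ordered by lowest coordinate on chromosome 15; error bars are exact 95% Poisson intervals of the fragments, or reach up to 3 fragments for the count of 0, and cover counting error only. Trappc9 went from 9.94 to 12.6 FPKM with intervals that do not overlap, Ago2 was almost level at 7.27 and 7.33 FPKM, and Kcnk9 was at or near 0.

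Among the 7 measured members of the region, 3 were higher in the KO-labelled library beyond counting error (Trappc9, Peg13 and Ptk2), 0 were lower and 4 were neither. The same rule called 24.6% of the 13084 measured protein-coding genes higher and 17.6% lower. Because a narrow interval is easier to clear with more fragments, the share was also taken over the 5817 measured protein-coding genes with 683 to 2916 fragments in both libraries together, the range of these 7 genes, a choice made after their values were seen. There 24.8% were higher and 16.8% lower. None of the 7 reached a 2-fold difference on the log2(FPKM + 1) scale in either direction, as 1.24% of measured protein-coding genes did.

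On that scale, which understates differences of low genes, the 7 genes had a median log2 ratio of 0.13, and of 0.087 without Trappc9. The median of all measured protein-coding genes was 0.022, and that of the 514 on chromosome 15 was 0.024. The middle 90% of them ran from −0.41 to 0.44, and all 7 genes lay inside that range, from −0.050 for Slc45a4 to 0.32 for Trappc9. Ptk2 (0.16) and Peg13 (0.18) had higher log2 ratios than 76.0% and 78.9% of them.

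Which genes counted as higher depended on how the libraries were scaled to each other. Rescaling to TPM multiplied every ratio by 0.869 and moved the median log2 ratio of all measured protein-coding genes by −0.19. Trappc9 was still higher (ratio 1.10), Peg13 (1.00) and Ptk2 (0.99) were neither, and Ago2 (0.88) and Slc45a4 (0.83) became lower. The TPM background was 7.88% higher and 48.4% lower. Scaling by library totals left only Trappc9 higher (1.19) and made Slc45a4 lower (0.90), beside a background of 14.5% higher and 30.3% lower. With trimmed mean of M values, a scaling from the typical ratio of all genes, the 3 higher genes stayed higher and 0 were lower, beside 21.8% and 20% of measured protein-coding genes. This scaling multiplied every ratio by only 0.985, so it lay close to the deposited scaling and was little of a separate check. Trappc9 was thus the one gene of the 7 that was higher under each of the 4 scalings tried.

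**Figure D2:**
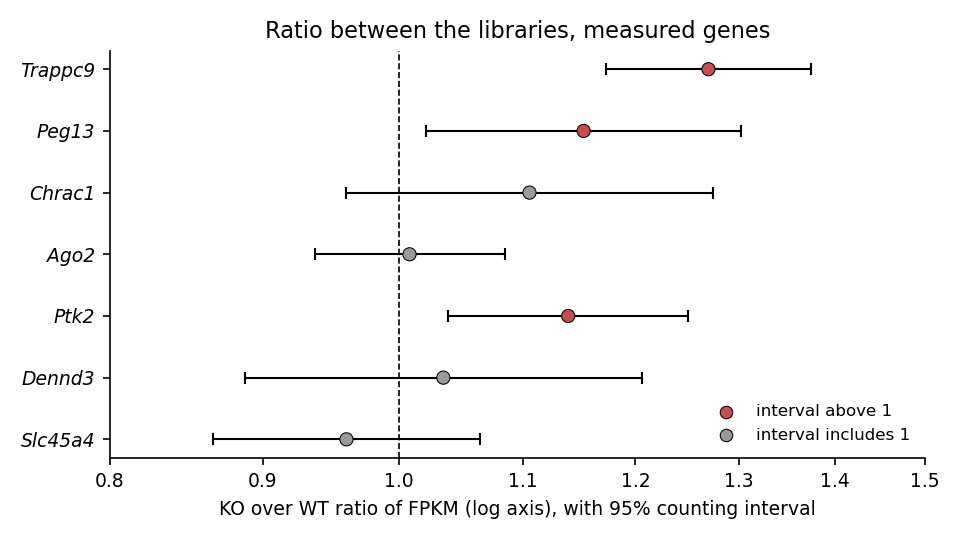
KO over WT ratio of FPKM on a log axis for the 7 measured genes, with exact 95% counting intervals; red points have an interval wholly above 1, grey points an interval that includes 1, and the dashed line marks 1. Trappc9 (1.27), Peg13 (1.15) and Ptk2 (1.14) are red, and Slc45a4 (0.96) is the only point left of the line.

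**Figure D3:**
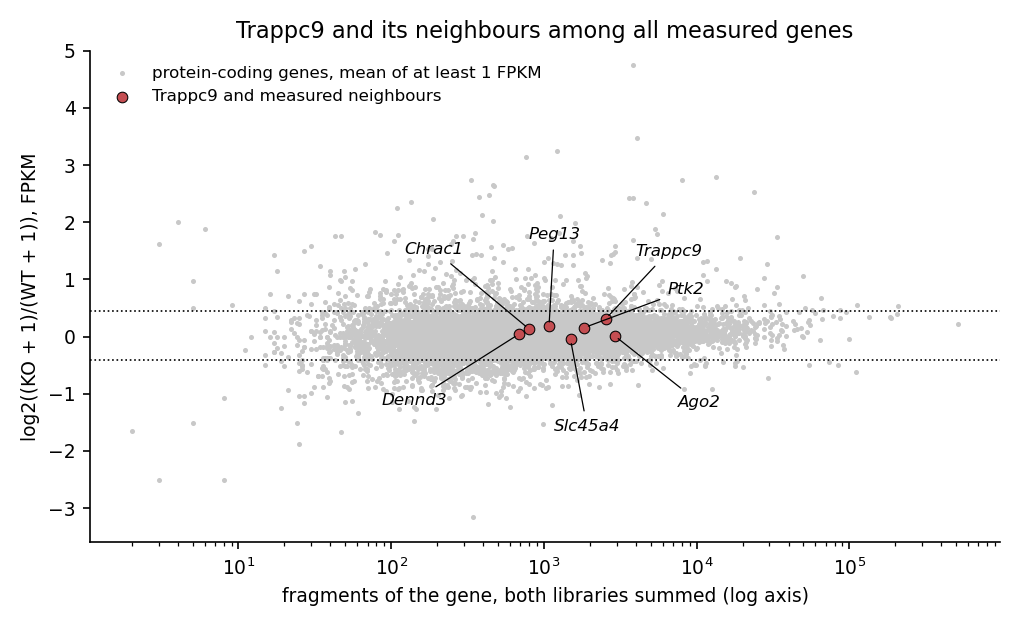
Log2((KO + 1)/(WT + 1)) of FPKM against the fragments of a gene summed over both libraries (log axis); grey dots are the 13084 measured protein-coding genes, red dots the 7 measured genes of the region, and dotted lines enclose the middle 90% of grey dots (−0.41 to 0.44). All 7 red dots lie between the dotted lines.

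A comparison of genes within a library does not depend on the scaling between libraries, so each pair of the 7 genes was compared by the change of their fragment ratio. For every Ago2 fragment the WT-labelled library held 0.773 Trappc9 fragments and the KO-labelled library 0.973, a change of 1.26-fold (1.13 to 1.40). Trappc9 also gained on Slc45a4, by 1.32-fold (1.16 to 1.51), and on Dennd3, by 1.23-fold (1.03 to 1.46). Its ratio to Peg13 changed by 1.10-fold (0.95 to 1.27), to Ptk2 by 1.11-fold (0.99 to 1.26) and to Chrac1 by 1.15-fold (0.98 to 1.35), none of them beyond counting error. Trappc9 therefore stood apart from some of its neighbours and not detectably from Peg13, Ptk2 or Chrac1.

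In all 21 pairs were compared, and in 6 the 95% interval left out 1. Besides the 3 pairs with Trappc9 these were Peg13 against Slc45a4 (1.20-fold, 1.02 to 1.41), Ptk2 against Slc45a4 (1.19-fold, 1.03 to 1.36) and Ptk2 against Ago2 (1.13-fold, 1.00 to 1.27). With intervals widened for the number of pairs, 2 were left, Trappc9 against Ago2 (1.07 to 1.49) and Trappc9 against Slc45a4 (1.08 to 1.62). The same share was not taken over pairs of other genes, so these counts are not read as particular to the region. Of all fragments on the 8 genes, Trappc9 took 20.7% (19.7% to 21.8%, Clopper-Pearson) of 5387 in the WT-labelled library and 24.0% (22.9% to 25.1%) of 5976 in the KO-labelled library. Ago2 took 26.8% (25.6% to 28.0%) and 24.6% (23.5% to 25.7%), and Peg13 9.26% and 9.72%.

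The order of the levels was nearly the same in both libraries. In the WT-labelled library Chrac1 was above Trappc9 by 1.14-fold (1.01 to 1.28), and Peg13, Ago2, Slc45a4, Ptk2 and Dennd3 followed. In the KO-labelled library Trappc9 and Chrac1 could not be told apart in level (1.01-fold, 0.90 to 1.13). Peg13 and Ago2 did not differ beyond counting error in the WT-labelled library (1.03-fold, 0.92 to 1.14) and did in the KO-labelled library (1.17-fold, 1.06 to 1.29). Slc45a4 and Ptk2 showed the reverse, at 1.23-fold (1.12 to 1.36) and 1.04-fold (0.94 to 1.14). Compared directly between libraries, the ratios of Trappc9 to Chrac1 (1.15-fold, 0.98 to 1.35) and of Peg13 to Ago2 (1.14-fold, 0.99 to 1.32) did not change beyond counting error. That of Ptk2 to Slc45a4 did (1.19-fold, 1.03 to 1.36), but not with the interval widened for the number of pairs (0.96 to 1.47). Against all measured protein-coding genes the genes of the set had middling levels. They ran from Dennd3, above 31.4% of those genes in the WT-labelled library, to Trappc9, above 67.9% in the KO-labelled library.

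Every other line of the table within 1 Mb of the set was then read, 33 genes, of which 12 were at 0 in both libraries and 6 averaged 1 FPKM or more. Of the 33, 11 lay between the first and last of the 8 genes, all of them pseudogenes or noncoding RNAs with at most 12 fragments in either library. They included Mir151, a microRNA gene inside Ptk2, with 0 and 1 fragments. The short RNA itself is not captured well by such a library, and no level is read from that line.

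The 6 measured genes outside the set had a median log2 ratio of −0.056, and 0 were higher and 2 lower beyond counting error, beside 24.6% and 17.6% of measured protein-coding genes. Both of these lower genes lay at the far end beyond Slc45a4. At the opposite end the collagen gene Col22a1, below the 1 FPKM limit with 24 and 8 fragments, also had an interval under 1 (ratio 0.33, 0.13 to 0.76). Adgrb1, an adhesion receptor that binds apoptotic cells, was at 1.49 and 1.10 FPKM (152 and 114 fragments), a ratio of 0.74 (0.58 to 0.95), and starts 1455 kb from the Trappc9 start. Mroh4 was at 4.45 and 2.61 FPKM (255 and 151 fragments), a ratio of 0.59 (0.48 to 0.72), at 1575 kb. Both were lower under each of the 4 scalings. The nearest measured gene beyond Slc45a4, the phosphatase gene Ptp4a3, was at 2.94 and 2.68 FPKM, a ratio of 0.91 (0.79 to 1.05). Of the pseudogenes, Gm2999 (7.26 and 9.31 FPKM, 44 and 57 fragments) had a ratio of 1.28 (0.85 to 1.95). Ndufb4c (2.17 and 3.41 FPKM, 12 and 19 fragments) had a ratio of 1.57 (0.72 to 3.54). Gm15387 (9.37 and 9.28 FPKM, 86 fragments in each) had a ratio of 0.99 (0.73 to 1.35). These intervals all included 1, and such copies can share reads with their parent genes. With so few fragments they are hard to call, so the count of 0 higher is not matched in depth to the background.

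**Figure D4:**
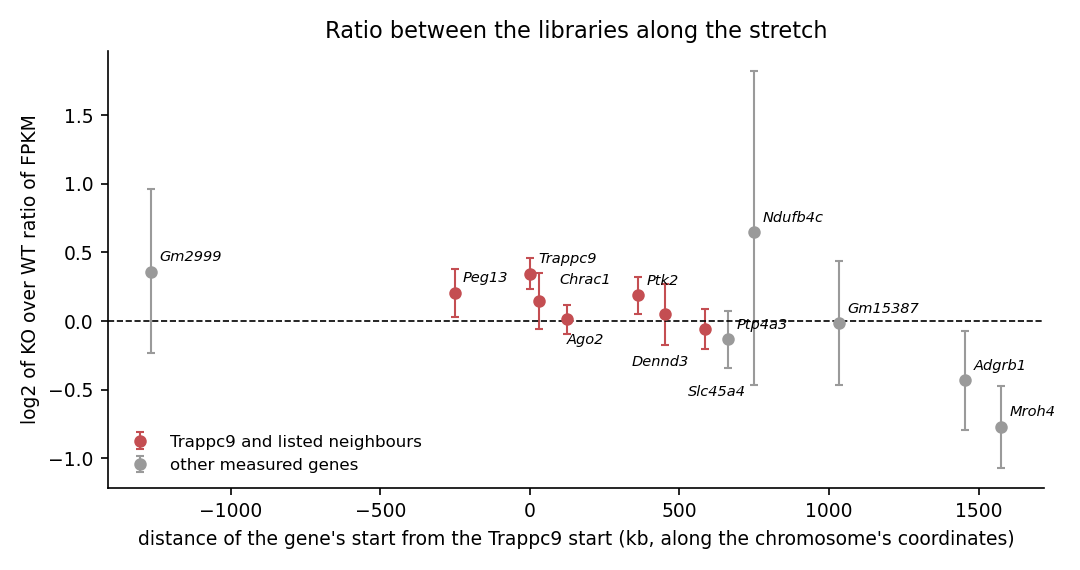
Log2 of the KO over WT ratio of FPKM against the distance of each gene's start from the Trappc9 start in kb, for the 13 genes of the stretch that averaged 1 FPKM or more; red points are the 7 measured genes of the set, grey points other genes, and bars are 95% counting intervals. Trappc9, Peg13 and Ptk2 lie above the dashed line of no difference, and Adgrb1 and Mroh4, the farthest on the right, lie below it.

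Partners of the proteins encoded in the region were taken from lists. The TRAPP subunits came first. Trappc10, the other subunit specific to TRAPPII, was at 13.4 and 14.8 FPKM, a ratio of 1.10 (1.03 to 1.18). Of 8 core subunits 3 were higher beyond counting error and 0 lower, beside 24.6% and 17.6% of measured protein-coding genes. The 3 were Trappc6a (18.9 and 25.3 FPKM), Trappc3 (25.0 and 32.4 FPKM) and Trappc4 (11.3 and 13.9 FPKM). Of the 4 subunits specific to TRAPPIII, the form that acts in autophagy, 1 was higher, Trappc12 (5.02 and 5.78 FPKM), and 0 were lower, while Trappc13 (8.91 and 8.09 FPKM) and Trappc8 (6.18 and 5.93 FPKM) were neither. Under TPM the core subunits Trappc3 and Trappc6a stayed higher and Trappc4, Trappc10 and Trappc12 did not, while Trappc6b (ratio 0.87) became lower. Under TPM and with library totals 3 of the 4 TRAPPIII subunits were lower, Trappc8 (0.83 and 0.90), Trappc11 (0.85 and 0.92) and Trappc13 (0.79 and 0.85), beside 48.4% and 30.3% of measured protein-coding genes.

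Of 10 genes whose products work with Trappc9, 5 were higher and 2 lower, beside a background of 24.6% and 17.6%. The log2 ratios farthest from 0 in this list, in either direction, were those of Nfkb1, an NF-kB subunit (6.85 and 5.87 FPKM, lower), of Rab11a, a GTPase of recycling endosomes (22.7 and 25.9 FPKM, higher), and of Rab3ip, which encodes the Rab activator Rabin8 (35.0 and 39.8 FPKM, higher). Under TPM none of the 10 was higher and 5 were lower, Nfkb1 among them, and with library totals none was higher and 3 were lower. The shares lower, 50% and 30%, stand beside 48.4% and 30.3% of measured protein-coding genes.

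For Ago2, the list held 13 genes of the microRNA machinery, Ago2 included, of which 3 were higher and 4 lower (background 24.6% and 17.6%), around a median log2 ratio of 0.010. Its closest relatives differed in direction, with Ago1 at 11.7 and 10.4 FPKM (ratio 0.89, 0.82 to 0.96), Ago3 at 2.39 and 2.24 FPKM (0.94, 0.83 to 1.06) and Ago4 at 1.76 and 2.16 FPKM (1.23, 1.00 to 1.51). Ago4 was higher only with the deposited scaling. The scaffold gene Tnrc6a, at 9.70 and 11.2 FPKM, was higher, and Dgcr8, which acts with Drosha on primary microRNAs, was lower at 3.94 and 3.37 FPKM. Under TPM none of the 13 was higher and 9 were lower, where 7.88% and 48.4% of measured protein-coding genes were.

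For Ptk2, 2 of 14 focal adhesion genes were higher and 0 lower (background 24.6% and 17.6%), around a median log2 ratio of 0.029. The 2 were Pxn, encoding paxillin (19.3 and 22.3 FPKM), and Bcar1, encoding the adaptor p130Cas (14.5 and 16.4 FPKM), and Itga5 had the next largest difference (8.56 and 7.67 FPKM, neither). Ptk2b, the kinase closest to Ptk2, was at 10.4 and 10.5 FPKM with a ratio of 1.01 (0.93 to 1.10). Under TPM none of the 14 was higher and 10 were lower, where the background was 7.88% and 48.4%.

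For Chrac1, the list held 6 genes of CHRAC or of DNA polymerase epsilon, which shares Pole3 with CHRAC. Of these 1 was higher and 2 were lower, beside 24.6% and 17.6% of measured protein-coding genes. In CHRAC, Pole3, the direct histone-fold partner of Chrac1, was at 23.6 and 24.8 FPKM (neither). Baz1a (3.67 and 4.17 FPKM) and Smarca5 (13.9 and 14.6 FPKM), also of CHRAC, were neither. The called genes were those of the polymerase that CHRAC does not share. Pole4, a histone-fold subunit, was at 17.6 and 21.3 FPKM (higher), and Pole (316 and 268 fragments) and Pole2 (103 and 76 fragments) were lower. Under TPM Pole4 was no longer higher and Smarca5 became lower (ratio 0.92). For Dennd3, 14 of the 15 genes listed as DENN domain genes or Rab12 were measured, of which 0 were higher and 1 was lower, Dennd2a (4.05 and 3.39 FPKM), against the same background. Dennd1c (1.26 and 1.52 FPKM), Dennd6b (2.71 and 3.08 FPKM) and Rab12, the target of Dennd3 (15.2 and 14.2 FPKM), were neither. Under TPM 9 of the 14 were lower, Rab12 among them, where the background was 48.4%.

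The highest log2 ratios among the partner lists were in the families of Kcnk9 and Slc45a4. Of 14 tandem-pore potassium channel genes 4 were measured. Of these 2 were higher and 0 lower, beside 24.6% and 17.6% of measured protein-coding genes. Kcnk2, at 1.46 and 2.66 FPKM (102 and 188 fragments), had a ratio of 1.83 (1.43 to 2.35), Kcnk1 stood at 125 and 151 FPKM (1.21, 1.16 to 1.26) and Kcnk6 at 1.89 and 1.45 FPKM (0.77, 0.57 to 1.03). Kcnk3, the channel most like Kcnk9, was at 0.51 and 0.53 FPKM. Of the Slc45 family 2 genes were measured, of which 1 was higher and 0 lower, against the same background. Slc45a3 was at 18.5 and 27.0 FPKM, a ratio of 1.46 (1.34 to 1.59), Slc45a1 had 11 and 31 fragments (0.18 and 0.49 FPKM) and Slc45a2 had 0 in both. Kcnk1, Kcnk2 and Slc45a3 were higher under each of the 4 scalings. Kcnk5 and Kcnk6 were lower with TPM and library totals. They made 50% of the measured channels, beside 48.4% and 30.3% of measured protein-coding genes that were lower.

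**Figure D5:**
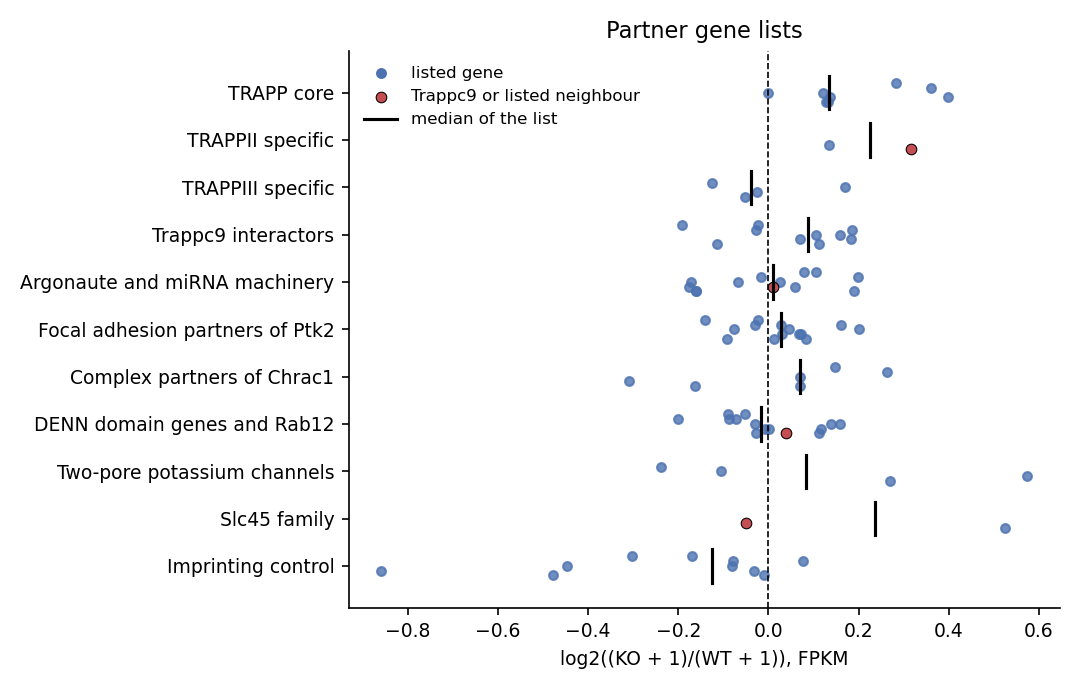
Log2((KO + 1)/(WT + 1)) of FPKM for each measured gene of 11 lists, 1 row for each list, with red points for genes of the Trappc9 region and black bars for list medians. The TRAPP core median is 0.13 and that of imprinting control genes −0.13.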

How the data were processed

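The authors deposited 1 table with 1 FPKM value per gene for each genotype, with gene length, position and biotype, per the file headers. HISAT2 2.0.5 appears in the submitters' processing notes, with hg38 and mm10 as builds and no roles stated; no counting program is given in the sources used here. Each library has a smallest step of FPKM times gene length, and 100% of its nonzero values were whole numbers of that step (tolerance 0.01 fragments), which gave fragments and depth. The step, for a gene of 1 kb, was 0.0706 FPKM (WT) and 0.0699 FPKM (KO).

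Deposited values were used without rescaling. Differences are ratios of FPKM with exact 95% Clopper-Pearson intervals, or log2 with a pseudocount of 1 FPKM; genes that averaged 1 FPKM or more count as measured, and measured protein-coding genes form the background. A count of 0 allows 3 fragments. For symbols listed repeatedly (105 extra lines) the line of higher mean level stood for the gene. Positions of the 8 genes matched GENCODE M21 (GRCm38), from which exons were read. The intervals and the trimmed mean of M values were run on simulated counts that held counting error only. Such counts cannot show how the intervals cover other variation. Genes named are the 8, up to 3 in each list with the log2 ratio farthest from 0 in either direction, fixed relatives of the 8, and measured genes within 1 Mb; others, such as Col22a1, were chosen after their values were seen. Some lists include genes of the region. The 8 genes and all lists were chosen with earlier results of these data known. Alternatives were TPM, library totals, trimmed mean of M values (computed from the recovered fragments with a Python version of the published method, in place of the planned package), pseudocounts, filters and a 99% interval. Python 3.11.15, numpy 2.4.6, pandas 2.3.3 and scipy 1.17.1 were used.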

Additional observations from a re-analysis of the deposited data

How the results depend on the processing

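No paired analysis was possible because each genotype has 1 library. Without replicates, the intervals show how precisely these 2 libraries were compared and not how animals vary. Rescaling to TPM had the largest effect. The Trappc9 ratio became 1.10, and that of Ptk2 became 0.99, no longer different from 1 beyond counting error. The median log2 ratio of the 7 measured genes turned to −0.056 and that of the 6 other genes within 1 Mb moved to −0.25. Under TPM the median of all measured protein-coding genes was −0.17, against 0.022 with the deposited scaling. The genes higher beyond counting error went from 3 to 1 under TPM and to 1 with library totals, and those lower from 0 to 2 and to 1. The cause was not tested. With trimmed mean of M values scaling, which multiplied ratios by only 0.985, the counts stayed at 3 and 0. With a 99% interval Peg13 was no longer higher, leaving 2. Other pseudocounts, the mean in place of the median, no filter, and leaving out Trappc9 kept the median of the region between 0.087 and 0.14. Kcnk9 was limited by depth.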

Other observations

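Genes that write, read or protect imprints, with insulator and cohesin genes, were read from a list of 11, of which 10 were measured. Of these, 5 were lower in the KO-labelled library beyond counting error and 0 higher, with a median log2 ratio of −0.13, beside 17.6% lower and 24.6% higher among measured protein-coding genes. Uhrf1, which brings the maintenance methyltransferase to newly copied DNA, was at 15.5 and 8.13 FPKM (938 and 495 fragments), a ratio of 0.52 (0.47 to 0.58). Dnmt1, that methyltransferase, was at 13.1 and 10.5 FPKM (ratio 0.80, 0.74 to 0.86), and Dnmt3a, which places new methylation, at 9.21 and 6.34 FPKM (0.69, 0.64 to 0.74). Zfp57, a zinc finger protein that protects imprints, was at 3.06 and 1.98 FPKM (164 and 107 fragments; 0.65, 0.50 to 0.83), and its partner Trim28 at 66.9 and 59.4 FPKM (0.89, 0.85 to 0.93). These 5 genes were lower under each of the 4 scalings. Zfp445, another zinc finger protein of the list, was at 18.4 and 19.4 FPKM and neither (1.06, 0.99 to 1.13). Only under TPM was Zfp445 lower (0.92).

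The insulator and cohesin genes of the same list did not differ beyond counting error with the deposited scaling. Ctcf was at 16.8 and 16.7 FPKM (0.99, 0.92 to 1.08) and Rad21 at 47.5 and 46.5 FPKM (0.98, 0.93 to 1.03). Under TPM Ctcf, Rad21, Smc1a and Smc3 were all lower, with library totals Rad21, Smc1a and Smc3 were, and with trimmed mean of M values Smc1a was. The list then held 10, 8 and 6 lower genes of 10, beside 48.4%, 30.3% and 20% of measured protein-coding genes. Uhrf1 and Dnmt1 are also genes of dividing cells, as are those of DNA polymerase epsilon. Of the latter, Pole and Pole2 were lower, Pole4 was higher (ratio 1.21, 1.09 to 1.35) and Pole3 was neither (1.05, 0.95 to 1.17). The part of cell division in these values was not tested. Methylation was not measured in these files.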
